A study of Homo sapiens with 8 samples.

Results

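Superoxide and peroxide are removed by a small set of enzymes, and 10 of their genes were followed here across arginine depletion in MDA-MB-231 cells and in a derivative without mitochondrial DNA. The genes were taken by name from the table of read counts and comprise the superoxide dismutases SOD1 and SOD2, the peroxiredoxins PRDX1, PRDX2, PRDX3, PRDX4, PRDX5 and PRDX6, the glutathione peroxidase GPX4 and catalase (CAT). They were 10 of 23393 genes in the table, and all 10 passed the filter on low counts that left 15262 genes for testing.

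The human breast cancer line MDA-MB-231 makes little ASS1, an enzyme needed to synthesise arginine, so that its cells depend on arginine from the medium. ρ0 cells are cells whose mitochondrial DNA has been lost, and the ρ0 cells sequenced here were 1 clone of MDA-MB-231, labelled number 27. RNA was sequenced from 2 samples each of parental control cells, parental cells with arginine deiminase (ADI), ρ0 control cells and ρ0 cells with ADI. ADI is an enzyme that breaks down arginine, and the labels give 0.3 µg/mL for 48 h in full growth medium, whereas the study's own text describes arginine-starved medium. Parental cells were grown in high-glucose DMEM with serum. The ρ0 line was maintained in the same base medium with pyruvate, uridine and ethidium bromide, so differences between the lines hold the loss of mitochondrial DNA, the choice of 1 clone and the culture supplements, which cannot be told apart.

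CAT and SOD2 carried the largest changes in parental cells. There CAT mRNA was 16.2-fold lower after ADI and SOD2 mRNA 3.05-fold lower. In ρ0 cells the fall of CAT was 2.66-fold, and SOD2 did not fall. Within the mitochondrial pair, SOD2 therefore responded differently in the 2 lines, whereas PRDX3 was 1.49-fold lower after ADI in both, by a fall that in ρ0 cells differed with the control library used. Among the cytosolic enzymes SOD1 and PRDX2 fell in both lines, PRDX6 rose in parental cells, and PRDX1 passed the test in neither line when all libraries were used.

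As background, superoxide dismutases convert superoxide, a by-product of the respiratory chain and of oxidases, into hydrogen peroxide, SOD2 with manganese in the mitochondrial matrix and SOD1 with copper and zinc mainly in the cytosol. Hydrogen peroxide is then reduced by peroxiredoxins, which mostly draw on thioredoxin, by glutathione peroxidases, which draw on glutathione, and by catalase, which sits in peroxisomes and needs no reducing partner. PRDX3 is the peroxiredoxin of the mitochondrial matrix, PRDX1, PRDX2 and PRDX6 are mainly cytosolic, PRDX4 resides in the secretory pathway, PRDX5 is found in mitochondria, peroxisomes and cytosol, and GPX4 reduces lipid peroxides in membranes and has cytosolic and mitochondrial forms. Antioxidant genes are classical targets of the factor NRF2, encoded by NFE2L2, and SOD2 is a classical target of NF-kB.

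The libraries held between 25259503 and 31022155 counts. Levels are given as CPM, read counts relative to library size after scaling by the trimmed mean of M-values (TMM), and comparisons between genes of different length are made only per kilobase of transcript. A gene is said to have risen or fallen when edgeR's quasi-likelihood test gave a Benjamini-Hochberg adjusted p under 0.05 over all 15262 tested genes. SDs are over the 2 samples of a group, and standard errors (SE) come from edgeR's fit, which pools the spread over all 8 libraries. The sources used here do not say that the 2 samples of a group were separate cultures, so the p-values measure the spread between these samples, which may be technical. In bulk RNA a change in a gene's share of the counts is seen, and fewer cells carrying the RNA and less RNA per cell cannot be told apart. The 2 ρ0 control libraries stood apart from each other, with a biological coefficient of variation between them of 25.1%, against 5.16% between the parental controls, 2.29% between the parental ADI libraries and 1.84% between the ρ0 ADI libraries. The ρ0 responses of the 10 enzymes, and their differences from the parental responses, are therefore also given without each ρ0 control. Related genes are given with all libraries unless stated. Adjusted p-values without 1 of them come from a fit in which the remaining control is assumed to vary like the closer pairs.

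The labelled cell type was checked on marker genes. VIM, CD44, AXL and EGFR, which are high in mesenchymal triple-negative breast cancer cells, were between 446 and 3635 CPM in every library, and the hormone receptor genes ESR1 and PGR were at most at 0.180 and 0.0347 CPM. ERBB2 and GATA3, the receptor and luminal genes also listed as low, were not near 0. ERBB2 was between 30.1 and 86.9 CPM over the 8 libraries, and GATA3 was between 4.38 and 5.57 CPM in the parental and between 10.4 and 18.6 CPM in the ρ0 libraries. The epithelial genes CDH1 and EPCAM were at most at 0.0709 and 0.521 CPM in the parental libraries. In the ρ0 libraries CDH1 was between 4.31 and 15.9 CPM and EPCAM between 16.4 and 23.7 CPM, so the clone differed from the parental line in epithelial markers as well, and their part in the results was not tested. The 13 protein-coding genes of mitochondrial DNA were looked for by name in the table of read counts and 0 were found. The loss of mitochondrial DNA was therefore not checked.

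Sequences upstream of the start site are shown for the 3 genes on which the comparison turns, namely CAT and SOD2, which spanned the widest range, and PRDX3, the mitochondrial partner of SOD2 that moved differently from it. Each is the 250 bases before the RefSeq start on GRCh38.p14, 5′ to 3′ on the gene's strand. Capitals mark the GC box, GGGCGG, and the CCAAT box, each on either strand. The SOD2 window is chr6:159693242-159693491 on the minus strand, the PRDX3 window chr10:119178813-119179062 on the minus strand and the CAT window chr11:34438684-34438933 on the plus strand.
SOD2: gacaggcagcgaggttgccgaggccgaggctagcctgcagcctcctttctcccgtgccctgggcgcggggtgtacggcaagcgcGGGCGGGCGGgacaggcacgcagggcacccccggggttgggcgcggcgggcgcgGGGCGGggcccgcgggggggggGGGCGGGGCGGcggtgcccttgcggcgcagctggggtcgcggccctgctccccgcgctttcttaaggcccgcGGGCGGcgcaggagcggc
PRDX3: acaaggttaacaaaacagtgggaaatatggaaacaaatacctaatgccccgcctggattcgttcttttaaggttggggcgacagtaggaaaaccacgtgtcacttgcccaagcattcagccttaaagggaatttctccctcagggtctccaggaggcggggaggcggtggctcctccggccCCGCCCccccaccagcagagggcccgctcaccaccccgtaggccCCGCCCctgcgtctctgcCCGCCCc
CAT: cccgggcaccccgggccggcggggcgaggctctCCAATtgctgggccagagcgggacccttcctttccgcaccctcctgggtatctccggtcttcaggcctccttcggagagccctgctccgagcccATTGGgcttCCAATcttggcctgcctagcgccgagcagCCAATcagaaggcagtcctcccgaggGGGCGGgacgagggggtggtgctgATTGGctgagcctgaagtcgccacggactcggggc

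The SOD2 window held 6 GC boxes, some overlapping, and no CCAAT box, with a GC content of 80.8%. The PRDX3 window held 3 GC boxes and no CCAAT box, and the CAT window 1 GC box and 5 CCAAT boxes. Promoters of 7 of the 10 genes were matched. For the counts over these 7 and over all genes, the windows also ran past the start, beyond the 250 bases shown. All 7 windows held a GC box, which 45.0% of 35116 RefSeq windows of the same length held. The CCAAT box was in 2 of the 7 windows, those of GPX4 and CAT, against 34.6% of all windows. The core of the antioxidant response element, TGACNNNGC on either strand, was in 0 of the 7 windows and in 13.3% of all windows, and the NF-kB motif was in 0 of the 7 and in 11.3% of all. These matches describe the letters in the windows and do not speak to binding.

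The mitochondrial and the cytosolic superoxide dismutase responded differently. SOD2 stood at 209.6 and 195 CPM in the parental controls and at 66.7 and 66.2 CPM in the parental ADI libraries. The ρ0 controls had 205 and 209 CPM of SOD2, and the ρ0 ADI libraries had 248.6 and 237 CPM. The parental ADI libraries were thus low and all 6 others lay close together, with no overlap between ADI and control in either line. The log2 fold change of SOD2 was -1.61 in parental cells (SE 0.08, edgeR adjusted p = 9.0e-06). In ρ0 cells it was 0.23 (SE 0.08, edgeR adjusted p = 0.045), a call that was lost in 15 of 20 alternatives, stricter thresholds included, and that held with DESeq2 and limma-voom. With the replicate number as a block it was lost (0.23, edgeR adjusted p = 0.068). The ρ0 value was 0.22 without ρ0 control replicate 1, and without replicate 2 it was 0.25. The difference between the responses, ρ0 minus parental, was 1.83 (SE 0.11, edgeR adjusted p = 1.2e-04) and was 1.83 without ρ0 control replicate 1 and 1.82 without replicate 2. In the annotation of GRCh38 the gene WTAP, a component of the RNA methylation machinery, overlaps SOD2 on the opposite strand. WTAP rose in parental cells, by 0.42 (edgeR adjusted p = 0.0068), the direction opposite to SOD2.

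SOD1, the cytosolic dismutase, stood at 164 and 172 CPM in the parental controls and at 111 and 112 CPM after ADI. The ρ0 controls had 211 and 155 CPM, and the ρ0 ADI libraries 88.1 and 91.0 CPM. The ADI libraries were lower in both lines without overlap, although the 2 ρ0 controls differed from each other by more than any other pair. SOD1 fell by 0.59 on the log2 scale in parental cells (SE 0.14, edgeR adjusted p = 0.0063) and by 1.03 in ρ0 cells (SE 0.14, edgeR adjusted p = 0.0013). The fall in ρ0 cells was 0.79 without control replicate 1 and 1.22 without replicate 2. Between the responses the difference of SOD1 was -0.44 with an interval from -0.89 to 0.02 (edgeR adjusted p = 0.11). It was -0.19 without ρ0 control replicate 1 (edgeR adjusted p = 0.021) and -0.67 without replicate 2 (edgeR adjusted p = 1.5e-07). CCS, the chaperone that loads copper into SOD1, fell in both lines as well, by 1.21 in parental cells (edgeR adjusted p = 7.7e-05) and by 0.76 in ρ0 cells (edgeR adjusted p = 0.0015).

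**Figure D1:**
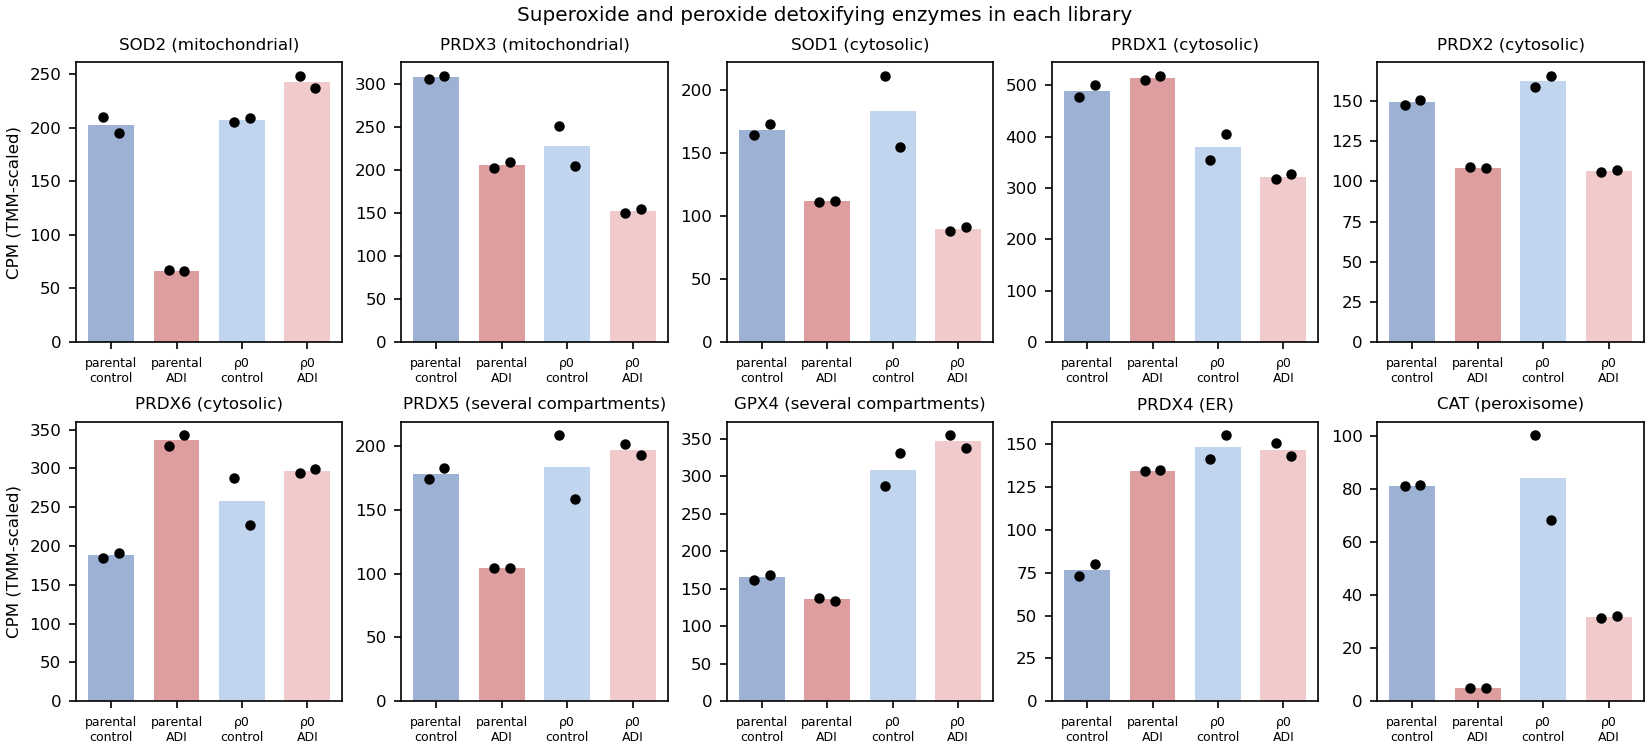
Level of each of the 10 enzymes in CPM after TMM scaling, on a vertical axis that starts at 0 in each panel. Points are the 2 libraries of a group and bars their mean. CAT stood near 5 CPM in both parental ADI libraries against 81 CPM in both parental controls, and SOD2 was low in the parental ADI libraries alone.

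PRDX3, the matrix peroxiredoxin, behaved differently from SOD2. It stood at 307 and 310 CPM in the parental controls, 203 and 210 CPM in the parental ADI libraries, 252 and 205 CPM in the ρ0 controls and 151 and 155 CPM in the ρ0 ADI libraries. ADI libraries were lower than their controls in each line, and ρ0 libraries were lower than parental libraries of the same treatment. On the log2 scale the response was -0.58 in parental cells (SE 0.10, edgeR adjusted p = 0.0019) and -0.58 in ρ0 cells (SE 0.11, edgeR adjusted p = 0.0044). The difference between these responses was 0.003 with an interval from -0.34 to 0.35, which does not show that the responses were alike. The ρ0 fall was 0.42 without ρ0 control replicate 1 and 0.71 without replicate 2, and the difference passed the test in opposite directions, at 0.16 (edgeR adjusted p = 0.029) and -0.17 (edgeR adjusted p = 0.028). TXN2, the mitochondrial thioredoxin that reduces PRDX3, fell in both lines too, by 0.48 in parental cells (edgeR adjusted p = 0.0017) and by 0.33 in ρ0 cells (edgeR adjusted p = 0.019). TXNRD2, the reductase of that thioredoxin, rose by 0.85 in parental cells (edgeR adjusted p = 0.0046) and had a log2 fold change of -0.16 in ρ0 cells (edgeR adjusted p = 0.55), a difference of -1.001 between the lines (SE 0.26, edgeR adjusted p = 0.021). Its ρ0 value turned with the control used, at -0.44 without ρ0 control replicate 1 (edgeR adjusted p = 1.0e-04) and 0.21 without replicate 2 (edgeR adjusted p = 0.047), and the difference was -1.29 and -0.67.

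The 3 cytosolic peroxiredoxins each did something else. PRDX1, a 2-cysteine enzyme, stood at 477 and 501 CPM in the parental controls and at 510 and 519 CPM after ADI. In ρ0 cells its levels were 355 and 405 CPM in the controls and 317 and 326 CPM after ADI. With all libraries PRDX1 passed the test in neither line, at 0.07 on the log2 scale in parental cells (interval from -0.13 to 0.28, edgeR adjusted p = 0.49) and -0.24 in ρ0 cells (interval from -0.44 to -0.04, edgeR adjusted p = 0.061). With either ρ0 control left out PRDX1 passed as a fall in ρ0 cells, at -0.33 without replicate 1 (edgeR adjusted p = 4.1e-06) and -0.13 without replicate 2 (edgeR adjusted p = 0.019), and over all alternatives it gained the call in 6 of 20. The difference between the responses was -0.31 (edgeR adjusted p = 0.079), and was -0.40 and -0.24 without these controls, each passing the test. The sign of the parental value turned with upper quartile and with total count scaling.

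PRDX2, a close relative of PRDX1 and the peroxiredoxin of red blood cells, stood at 148 and 151 CPM in the parental controls and at 109 and 109 CPM after ADI. The ρ0 controls had 159 and 166 CPM and the ρ0 ADI libraries 106 and 107 CPM. Its groups were separated by treatment in both lines and close to each other between the lines. PRDX2 fell by 0.46 in parental cells (SE 0.07, edgeR adjusted p = 8.0e-04) and by 0.61 in ρ0 cells (SE 0.07, edgeR adjusted p = 6.9e-04), and the difference of -0.15 between the responses had an interval from -0.38 to 0.08. With ρ0 control replicate 1 left out the ρ0 fall was 0.64 and the difference -0.18 (edgeR adjusted p = 0.026), and without replicate 2 they were 0.56 and -0.14 (edgeR adjusted p = 0.075).

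PRDX6, the 1-cysteine peroxiredoxin, which also has phospholipase activity, went the other way. It stood at 185 and 191 CPM in the parental controls and at 329 and 343 CPM in the parental ADI libraries. The ρ0 controls had 288 and 227 CPM and the ρ0 ADI libraries 294.5 and 299.5 CPM, so control and ADI were close in that line. PRDX6 rose by 0.84 in parental cells (SE 0.11, edgeR adjusted p = 4.6e-04), and in ρ0 cells its log2 fold change was 0.21 (SE 0.11, edgeR adjusted p = 0.18). Without ρ0 control replicate 1 the ρ0 value was 0.39 (edgeR adjusted p = 1.2e-06), and without replicate 2 it was 0.06. The difference between the responses was -0.63 (SE 0.16, edgeR adjusted p = 0.018), and it lost its call in 8 of 19 alternatives. It was -0.45 without ρ0 control replicate 1 and -0.82 without replicate 2.

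Of the enzymes outside these classes, PRDX5 resembled SOD2. PRDX5, an atypical 2-cysteine peroxiredoxin, stood at 174 and 183 CPM in the parental controls and at 104.5 and 104.3 CPM in the parental ADI libraries. The ρ0 controls had 209 and 159 CPM, and the ρ0 ADI libraries had 202 and 193 CPM, between them. PRDX5 fell by 0.77 in parental cells (SE 0.13, edgeR adjusted p = 0.0011), whereas the log2 fold change in ρ0 cells was 0.10 (SE 0.13, edgeR adjusted p = 0.55). The responses differed by 0.88 (SE 0.18, edgeR adjusted p = 0.0078). Without ρ0 control replicate 1 the ρ0 value was 0.32 (edgeR adjusted p = 3.4e-05) and the difference 1.09, and without replicate 2 they were -0.07 (edgeR adjusted p = 0.25) and 0.67. Over the 8 libraries Pearson's r of log2 CPM between PRDX5 and SOD2 was 0.959, given as a description since the libraries share lines and treatments.

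PRDX4, which reduces peroxide made during disulfide formation in the endoplasmic reticulum, stood at 73.1 and 80.2 CPM in the parental controls and at 134 and 135 CPM after ADI. It was at 141 and 156 CPM in the ρ0 controls and at 151 and 143 CPM in the ρ0 ADI libraries. Parental controls alone were low. PRDX4 rose by 0.81 in parental cells (SE 0.09, edgeR adjusted p = 1.4e-04). In ρ0 cells the log2 fold change was -0.01 with an interval from -0.21 to 0.19, and the responses differed by -0.83 (SE 0.12, edgeR adjusted p = 0.0024). Without ρ0 control replicate 1 these values were -0.08 and -0.89, and without replicate 2 they were 0.07 and -0.78.

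GPX4, the glutathione peroxidase that restrains ferroptosis, stood at 162 and 168.5 CPM in the parental controls and at 137 and 134 CPM in the parental ADI libraries. In ρ0 cells it was at 286 and 330 CPM in the controls and at 355 and 338 CPM after ADI. The main separation was by line, all 4 ρ0 libraries lying above all 4 parental ones. GPX4 fell by 0.28 in parental cells (SE 0.09, edgeR adjusted p = 0.026), a call lost in 8 of 20 alternatives. In ρ0 cells its log2 fold change was 0.17 (SE 0.09, edgeR adjusted p = 0.17), and the responses differed by 0.45 (SE 0.13, edgeR adjusted p = 0.027), a call lost in 8 of 19 alternatives. With ρ0 control replicate 1 left out the ρ0 value was 0.07 (edgeR adjusted p = 0.23) and the difference 0.36, and without replicate 2 they were 0.29 (edgeR adjusted p = 6.9e-05) and 0.53.

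CAT, the peroxisomal catalase, had the largest range of the 10 genes. Its counts were 2704 and 2344 in the parental controls and 123 and 145 in the parental ADI libraries. In CPM these were 81.1 and 81.4 against 4.87 and 5.14. The ρ0 controls had 100.4 and 68.2 CPM, and the ρ0 ADI libraries 31.3 and 32.1 CPM. CAT was thus lower after ADI in both lines without overlap, and the parental ADI libraries lay well below the ρ0 ADI libraries. The log2 fold change was -4.02 in parental cells (SE 0.19, edgeR adjusted p = 9.0e-06) and -1.41 in ρ0 cells (SE 0.17, edgeR adjusted p = 7.6e-04). The ρ0 value was -1.11 without ρ0 control replicate 1 and -1.65 without replicate 2. A fall of more than 4-fold that passed the test was seen for 10.1% of all tested genes in parental cells. The difference between the responses was 2.61 (SE 0.25, edgeR adjusted p = 5.3e-04), and was 2.92 without ρ0 control replicate 1 and 2.33 without replicate 2. PEX5, the receptor that carries catalase and other proteins into peroxisomes, rose in both lines, by 0.87 in parental cells (edgeR adjusted p = 0.0010) and by 0.46 in ρ0 cells (edgeR adjusted p = 0.032), a ρ0 rise of 0.25 without ρ0 control replicate 1 and of 0.73 without replicate 2.

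Counted together, 9 of the 10 genes passed the test in parental cells, 2 higher and 7 lower. Since 65.9% of all tested genes passed in that comparison, 30.4% higher and 35.5% lower, passing the test is in itself little distinction there. The median log2 fold change of the 10 genes was -0.52, beside -0.07 over all tested genes. With a fold threshold of log2 1 in addition, the thresholds the study used for differentially expressed genes (DEGs), CAT and SOD2 remained, and 34.9% of tested genes passed.

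In ρ0 cells 5 of the 10 genes passed, SOD2 higher and CAT, SOD1, PRDX2 and PRDX3 lower, against 41.3% of all tested genes, 19.2% higher and 22.1% lower. CAT and SOD1 also passed the fold threshold, as did 12.4% of tested genes. The median of the 10 was -0.13, beside -0.02 over all genes. Without ρ0 control replicate 1, 8 genes passed beside 62.8% of all tested genes, and without ρ0 ADI replicate 1, 3 passed beside 20.4%. The difference between the responses passed for 6 of the 10 genes, positive for CAT, SOD2, PRDX5 and GPX4 and negative for PRDX4 and PRDX6, while it passed for 40.4% of all tested genes, 21.6% positive and 18.8% negative. Without ρ0 control replicate 1 all 10 passed beside 65.9% of all tested genes, and without replicate 2, 9 passed beside 59.5%, again with the spread taken from the other pairs.

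**Figure D2:**
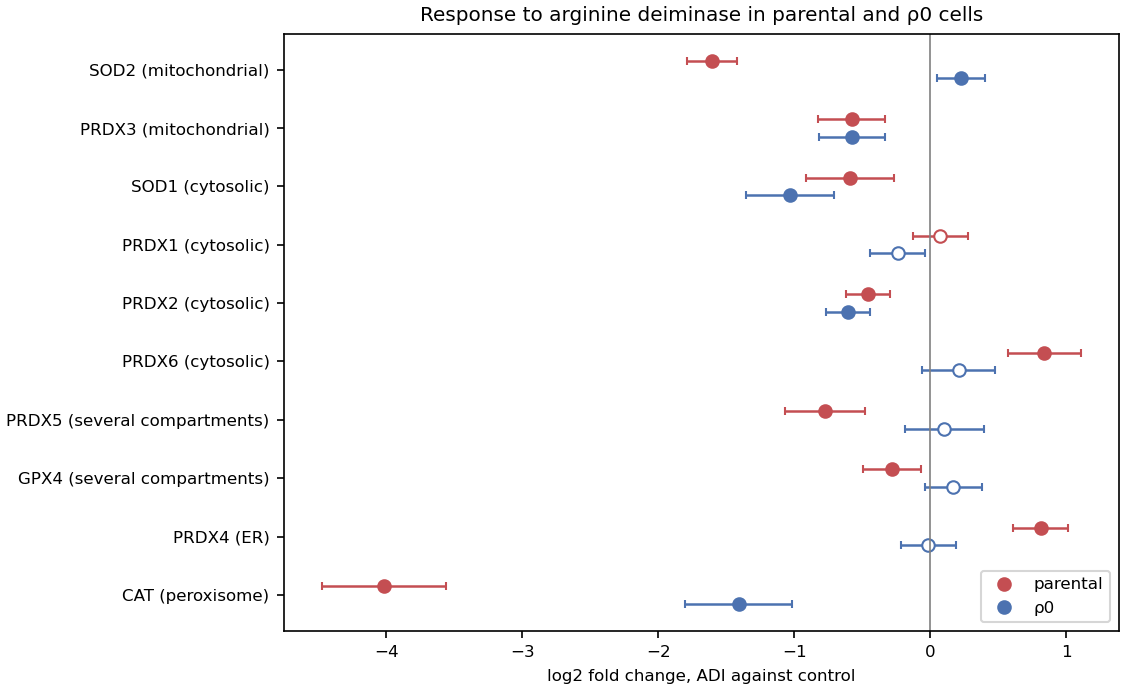
Response of each enzyme to ADI as log2 fold change against the control of the same line on the horizontal axis, parental cells in red and ρ0 cells in blue. Horizontal bars are 95% intervals from edgeR's fit, and filled points had an adjusted p under 0.05. CAT and SOD2 lie farthest left in parental cells, and the 2 intervals do not meet for CAT, SOD2, PRDX5, PRDX6, PRDX4 and GPX4.

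The lines were compared at each condition to place these responses. The comparisons share control and ADI libraries with those above and are not independent of them. In full medium 5 of the 10 genes differed, 3 higher and 2 lower in ρ0 cells, against 62.3% of all tested genes, 30.5% higher and 31.8% lower. PRDX4 was 1.94-fold, GPX4 1.87-fold and PRDX6 1.37-fold higher in ρ0 cells, and PRDX3 was 1.35-fold and PRDX1 1.29-fold lower. The log2 difference of PRDX6 was 0.27 without ρ0 control replicate 1 and 0.67 without replicate 2, and that of PRDX3 was -0.59 and -0.24. SOD2, with a log2 difference of 0.04 (interval from -0.14 to 0.21), and CAT, with 0.05 (interval from -0.33 to 0.43), did not pass the test. The 2 ρ0 controls pulled SOD1, PRDX5 and CAT in opposite directions. Without replicate 1 these genes were lower in ρ0 cells, with log2 differences of -0.12, -0.17 and -0.25, and without replicate 2 they were higher, with 0.38, 0.28 and 0.36, each with an adjusted p under the threshold.

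With ADI in both lines, 6 of the 10 genes differed, 4 higher and 2 lower in ρ0 cells, against 66.5% of all tested genes, 32.9% higher and 33.5% lower. CAT was 6.32-fold higher in ρ0 cells (SE of log2 0.19, edgeR adjusted p = 1.8e-05), SOD2 3.65-fold (SE of log2 0.08, edgeR adjusted p = 2.0e-06), GPX4 2.55-fold and PRDX5 1.89-fold higher. PRDX1 was 1.60-fold and PRDX3 1.35-fold lower. For PRDX4 the log2 difference of 0.13, in an interval from -0.07 to 0.33, was below that of 0.95 in full medium.

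The mitochondrial enzymes were then set against the cytosolic ones within each library, as the mean log2 CPM of SOD2 and PRDX3 minus that of SOD1, PRDX1, PRDX2 and PRDX6. Scaling between libraries cancels in this difference. It was 0.24 and 0.14 in the parental controls and -0.87 in both parental ADI libraries. In ρ0 cells it was -0.09 in both controls and 0.17 and 0.13 after ADI. The balance thus moved towards the cytosolic enzymes in parental cells, by 1.06, and towards the mitochondrial ones in ρ0 cells, by 0.24, with no overlap between control and ADI in either line. The 2 ρ0 controls agreed in this mean but not in single pairs. SOD2 minus SOD1 was -0.04 and 0.44 in them, and PRDX3 minus PRDX1 was -0.50 and -0.98. After ADI in ρ0 cells the group mean of SOD2 minus SOD1 moved by 1.24. That of PRDX3 minus PRDX1 moved by -0.33, minus PRDX2 by 0.04 and minus PRDX6 by -0.79. With 2 samples against 2, an exact permutation test cannot give a two-sided p below 0.333, so no test was made.

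Single pairs of enzymes moved differently. The ratio of SOD2 to SOD1 counts was 1.28 and 1.13 in the parental controls and 0.600 and 0.593 after ADI. In ρ0 cells it was 0.974 and 1.35 in the controls and 2.82 and 2.60 after ADI, the highest of all libraries. The ratio of PRDX3 to PRDX1 counts was 0.642 and 0.619 in the parental controls and 0.397 and 0.405 after ADI. In ρ0 cells it was 0.709 and 0.506 in the controls and 0.475 and 0.476 after ADI, again lower after ADI. PRDX3 to PRDX2 changed least with treatment, from 2.08 and 2.06 to 1.86 and 1.94 in parental cells and from 1.59 and 1.23 to 1.42 and 1.45 in ρ0 cells, since both genes fell. PRDX3 to PRDX6 went from 1.66 and 1.62 to 0.615 and 0.612 in parental cells and from 0.876 and 0.901 to 0.512 and 0.519 in ρ0 cells. The ratios describe relative change of the genes in a library, and a ratio alone does not tell which gene of a pair moved.

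**Figure D3:**
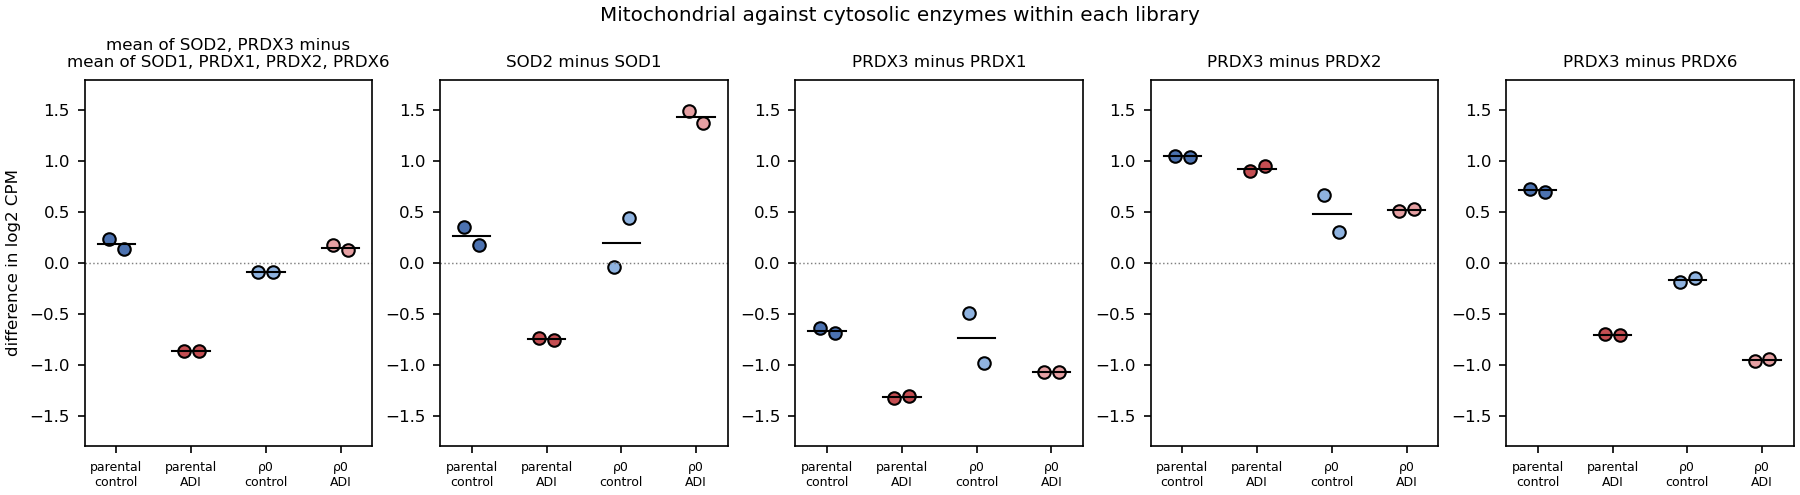
Difference in log2 CPM between mitochondrial and cytosolic enzymes within each library on the vertical axis, for the class means and for 4 pairs of enzymes. Points are libraries, horizontal lines are group means and the dotted line is 0. The class difference lies at -0.87 in both parental ADI libraries and between -0.09 and 0.24 in the other 6, and the rise of SOD2 over SOD1 after ADI is seen in ρ0 cells alone.

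Averaged over the classes, the log2 response to ADI of the 2 mitochondrial genes was -1.09 in parental cells and -0.17 in ρ0 cells, and that of the 4 cytosolic genes was -0.04 and -0.42. Some of these means hide members of opposite sign, PRDX6 against SOD1 and PRDX2 in the cytosol and SOD2 against PRDX3 in ρ0 mitochondria. The cytosolic genes therefore did not move as a unit, nor did the mitochondrial pair in ρ0 cells. In parental cells SOD2 and PRDX3 both fell. Counting PRDX5 with the mitochondrial enzymes gave a class difference of 0.03 in parental controls, -0.92 after ADI, -0.17 in ρ0 controls and 0.16 after ADI, with the same directions of change.

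Levels were compared between genes per kilobase of the longest GENCODE transcript. PRDX1 was the most abundant in the parental controls, at 397 ± 14 CPM per kilobase (SD, n = 2), followed by PRDX5 at 199.9 ± 6.8. It was also first in the parental ADI libraries and in the ρ0 controls. In the ρ0 ADI libraries GPX4, at 293 ± 10, was first and PRDX1, at 261 ± 5.2, second, an order that turned with the median transcript length. CAT fell from 35.3 ± 0.11 to 2.17 ± 0.083 CPM per kilobase in parental cells and was last of the 10 after ADI. The place of SOD2 could not be fixed either, because its longest transcript has 14266 bases and its median transcript 815 bases, which moved it from the 10th to the 3rd place in the parental controls. For the same reason the mitochondrial share of the 6 mitochondrial and cytosolic enzymes after ADI in ρ0 cells was 13.4% by the longest and 27.4% by the median transcript. Its direction in ρ0 cells turned as well. By the longest transcript it was 15.8% and 14.0% in the controls and 13.5% and 13.4% after ADI. By the median transcript the group mean went from 24.0% to 27.4%. In parental cells the share was lower after ADI by both lengths.

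The 10 genes together took 0.213% and 0.220% of the counts in the parental controls and 0.165% and 0.167% after ADI. In ρ0 cells they took 0.220% and 0.211% in the controls and 0.185% and 0.184% after ADI. The summed share was lower after ADI in both lines without overlap.

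For CAT and SOD2, whose group means spanned 4.03 and 1.87 on the log2 scale, the genes with the most similar pattern over the 8 libraries were looked up among 9951 genes with a mean of at least 10 CPM. For CAT these were PLXNB2, a plexin receptor (Pearson's r = 0.999), ADGRG1, an adhesion G protein-coupled receptor (0.998), and SDPR, a caveola component (0.997). ADGRG1 stood at 72.9 and 75.4 CPM in the parental controls, 4.63 and 5.21 after ADI, 85.6 and 50.3 in the ρ0 controls and 27.9 and 28.3 after ADI. It shared with CAT the deep parental fall, the smaller ρ0 fall and the gap between the 2 ρ0 controls. For SOD2 the nearest were TK2, the mitochondrial thymidine kinase (r = 0.995), FAM210B (0.994) and ANKRD28 (0.993). TK2 stood at 27.2 and 29.5 CPM in the parental controls, 8.55 and 8.15 after ADI, 30.7 and 30.3 in the ρ0 controls and 32.8 and 33.7 after ADI. These r describe 8 libraries in 4 groups and carry no test.

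The genes that feed, regulate or complement the 10 enzymes were taken from 11 lists with 110 genes, of which 103 were tested. In parental cells 34 of them rose and 43 fell, and in ρ0 cells 34 rose and 28 fell. These lists passed the test at rates of 74.8% and 60.2%, beside the 65.9% and 41.3% of all tested genes. With total count scaling the parental numbers were 24 and 48.

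Of 7 thioredoxin and sulfiredoxin genes, which include a repair enzyme and an inhibitor of thioredoxin, 5 rose and 2 fell there, and 2 rose and 3 fell in ρ0 cells. TXNRD1, the cytosolic thioredoxin reductase, rose from 376 and 360 CPM to 547 and 568 CPM in parental cells and from 445 and 613 CPM to 1026 and 1036 CPM in ρ0 cells. TXN, the cytosolic thioredoxin, rose by 0.33 in parental cells (edgeR adjusted p = 0.0081) and fell by 0.26 in ρ0 cells (edgeR adjusted p = 0.036), and this difference passed the test (log2 -0.60, SE 0.12, edgeR adjusted p = 0.0065). The ρ0 value of TXN was -0.33 without ρ0 control replicate 1 and -0.18 without replicate 2. SRXN1, which repairs over-oxidised peroxiredoxins, rose by 0.62 in parental cells (edgeR adjusted p = 0.048) and had -0.24 in ρ0 cells (edgeR adjusted p = 0.44). Its ρ0 ADI libraries, at 127 and 126 CPM, lay between the ρ0 controls at 106 and 193 CPM, and its ρ0 value was -0.61 without replicate 1 of the ρ0 controls and 0.27 without replicate 2, so its direction in ρ0 cells turned with the control used. TXNIP, which binds and inhibits thioredoxin, rose by 1.19 in parental cells (edgeR adjusted p = 0.0016) and by 1.85 in ρ0 cells (edgeR adjusted p = 6.7e-04).

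Of 8 genes that make, recycle or break down glutathione, 5 rose and 3 fell in parental cells, and 4 rose and 2 fell in ρ0 cells. SLC7A11, the cystine importer, rose from 96.0 and 83.4 CPM to 519 and 522 CPM in parental cells and from 41.1 and 74.6 CPM to 190 and 199 CPM in ρ0 cells. GCLM, a subunit of the enzyme that starts glutathione synthesis, stood at 29.3 and 27.2 CPM in the parental controls and 108 and 109 CPM after ADI. It stood between 112 and 129 CPM in all 4 ρ0 libraries, and the responses differed by -2.06 (SE 0.11, edgeR adjusted p = 9.7e-05). GSR, glutathione reductase, fell by 0.84 in parental cells (edgeR adjusted p = 8.7e-04), opposite to the importers.

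Among 10 enzymes and kinases of NADPH supply, 3 rose and 4 fell in parental cells, and 3 rose and 1 fell in ρ0 cells. IDH1, the cytosolic and peroxisomal isocitrate dehydrogenase, stood at 51.1 and 56.6 CPM in the parental controls and 3.05 and 4.25 CPM after ADI. In the ρ0 controls it stood at 83.1 and 39.7 CPM, and at 76.0 and 75.1 CPM after ADI, within the gap between those controls. Its responses differed by 4.17 (SE 0.47, edgeR adjusted p = 9.1e-04). IDH2, the mitochondrial form, fell in both lines, by 2.72 in parental cells (edgeR adjusted p = 1.9e-05) and by 2.47 in ρ0 cells (edgeR adjusted p = 1.8e-04). Here the mitochondrial enzyme fell in both lines, whereas of the dismutases it was the cytosolic one.

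**Figure D4:**
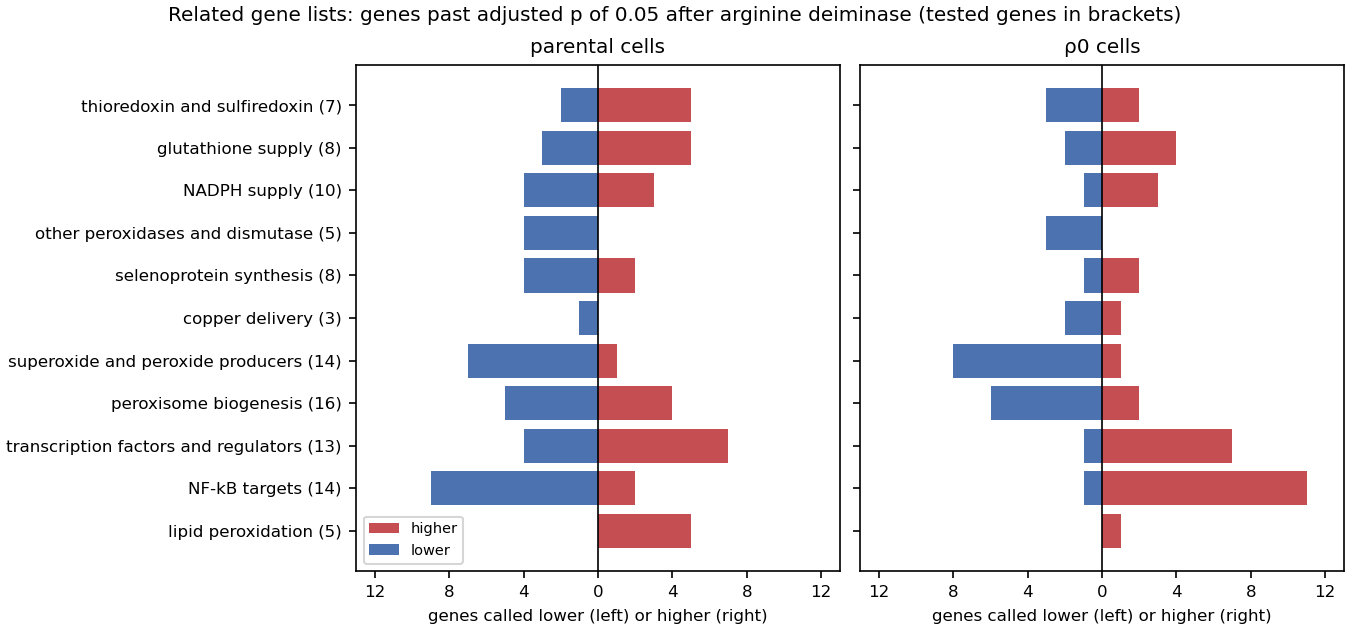
Number of genes in each of 11 related lists that rose (red, to the right) or fell (blue, to the left) after ADI at an adjusted p under 0.05, in parental cells and in ρ0 cells, with the number of tested genes in brackets. NF-kB targets show 2 higher and 9 lower in parental cells against 11 higher and 1 lower in ρ0 cells.

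Of 5 tested genes of other peroxidases and the extracellular dismutase SOD3, 4 fell in parental cells, SOD3 among them, 3 fell in ρ0 cells, and 0 rose in either. GPX1, the cytosolic and mitochondrial glutathione peroxidase, fell by 0.58 in parental cells (edgeR adjusted p = 6.3e-04) and by 0.43 in ρ0 cells (edgeR adjusted p = 0.0056). GPX3, the secreted form, stood at 30.0 and 32.8 CPM in the parental controls and 4.83 and 5.14 CPM after ADI. In the ρ0 controls it stood at 220 and 143 CPM, and at 75.5 and 77.2 CPM after ADI, a larger fold fall in parental cells than in ρ0 cells as for CAT (difference 1.40, SE 0.27, edgeR adjusted p = 0.0069). Of 14 tested genes whose products make superoxide or peroxide, 1 rose and 7 fell in parental cells, and 1 rose and 8 fell in ρ0 cells. MAOA, which makes peroxide at the mitochondrial outer membrane, fell by 1.27 in parental cells (edgeR adjusted p = 2.8e-05) and by 0.41 in ρ0 cells (edgeR adjusted p = 0.0091). AOX1, aldehyde oxidase, fell by 1.27 in parental cells (edgeR adjusted p = 1.5e-05) and fell by 1.503 in ρ0 cells (edgeR adjusted p = 5.9e-05).

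Genes of cofactors and organelles were mixed. Of 8 genes of selenoprotein synthesis, on which GPX4 depends, 2 rose and 4 fell in parental cells, and 2 rose and 1 fell in ρ0 cells. SEPHS2, which makes the selenium donor, was at -0.02 on the log2 scale in parental cells (edgeR adjusted p = 0.88) and rose by 0.42 in ρ0 cells (edgeR adjusted p = 0.020), or by 0.27 without ρ0 control replicate 1 and 0.61 without replicate 2. SECISBP2, which recodes the selenocysteine codon, fell by 0.96 in parental cells (edgeR adjusted p = 4.9e-04). Of 3 genes of copper delivery, CCS alone passed in parental cells, and in ρ0 cells CCS and ATOX1 fell and SLC31A1 rose. Of 16 peroxisome biogenesis genes, 4 rose and 5 fell in parental cells, and 2 rose and 6 fell in ρ0 cells. PEX6, an ATPase that recycles PEX5, went from 68.3 and 72.7 CPM to 20.5 and 19.6 CPM in parental cells. It fell less in ρ0 cells, with a difference of 1.46 between the responses (edgeR adjusted p = 5.9e-04). The 5 tested genes of lipid peroxidation include ACSL4 and LPCAT3, which build the lipids that become peroxidised, and AIFM2, DHODH and GCH1, which counter lipid peroxides. All 5 rose in parental cells, where 30.4% of all genes rose, and 1, AIFM2, rose in ρ0 cells, where 19.2% did. The ρ0 count rests on both controls. Without ρ0 control replicate 1 the ρ0 values of DHODH and GCH1 were -0.14 and -0.20, and without replicate 2 they were 0.97 and 0.46. AIFM2 was at 0.40 and 0.24, ACSL4 at 0.35 and 0.18 and LPCAT3 at -0.09 and -0.19, in the same order.

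Of 13 transcription factors and regulators, 7 rose and 4 fell in parental cells, and 7 rose and 1 fell in ρ0 cells. FOXO1 and FOXO3, forkhead factors that are known regulators of SOD2 and CAT, rose in parental cells, where both of those genes fell, by 1.26 (edgeR adjusted p = 6.9e-05) and 1.47 (edgeR adjusted p = 1.5e-05). They rose in ρ0 cells too, by 1.42 (edgeR adjusted p = 2.3e-04) and 0.81 (edgeR adjusted p = 6.0e-04). NFE2L2 rose by 0.48 in parental cells (edgeR adjusted p = 0.0081) and by 0.47 in ρ0 cells (edgeR adjusted p = 0.016), or by 0.31 without ρ0 control replicate 1 and 0.66 without replicate 2. Of 14 NF-kB targets, 2 rose and 9 fell in parental cells with a median log2 fold change of -0.92, and 11 rose and 1 fell in ρ0 cells with a median of 0.91. Of all tested genes, 30.4% rose and 35.5% fell in parental cells, and 19.2% rose and 22.1% fell in ρ0 cells. The difference between the responses passed the test for 12 of the 14, each positive, as for SOD2, against 21.6% of all genes with a positive difference that passed. BIRC3, an inhibitor of apoptosis, went from 206 and 202 CPM to 47.9 and 49.4 CPM in parental cells and from 380 and 352 CPM to 626 and 647 CPM in ρ0 cells. CXCL8, a chemokine, went from 439 and 456 CPM to 251 and 261 CPM in parental cells and from 24.3 and 16.7 CPM to 127 and 127 CPM in ρ0 cells. The NF-kB subunit genes were mixed. RELB and NFKB2 are themselves among the 14 targets and, named after their values were seen, rose in ρ0 cells by 0.99 (edgeR adjusted p = 5.1e-04) and 0.51 (edgeR adjusted p = 0.0060). In parental cells RELB rose by 0.56 (edgeR adjusted p = 0.0023) and NFKB2 was at -0.13 (edgeR adjusted p = 0.29). RELA rose by 1.17 in parental cells (edgeR adjusted p = 2.8e-05) and by 0.45 in ρ0 cells (edgeR adjusted p = 0.0048), a difference of -0.72 (edgeR adjusted p = 0.0036). NFKB1, named after its values were seen, rose by 0.33 in parental cells (edgeR adjusted p = 0.0083) and was at 0.05 in ρ0 cells (edgeR adjusted p = 0.68). The ρ0 value of NFKB1 turned with the control used, at -0.04 without ρ0 control replicate 1 and 0.15 without replicate 2. The part of NF-kB in the SOD2 values was not tested. Over the 103 tested genes of the 11 related lists, 62 passed in ρ0 cells. The difference between the lines passed for 48, or 46.6%, beside 40.4% of all tested genes. The 62 and the 48 kept their direction when either ρ0 control was left out in turn. Their calls in those fits are not a check, since the widest pair then no longer adds to the spread.

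Some values rest on counting choices not stated in the sources used here. Without strand in the counting, reads of SOD2 and WTAP, and of PRDX1 and the overlapping MMACHC, cannot be told apart, and HOOK2 overlaps PRDX2 on the same strand. GENCODE holds 14 processed pseudogenes named after 6 of the 10 genes, and 0 of these names are in the table of read counts. Reads that match both a gene and its copy may have been counted on the gene or dropped.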

How the data were processed

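RNA-seq of 8 libraries in 4 groups of 2 was analysed. The authors deposited unnormalised counts of reads for each gene symbol. The submitters' processing notes name Bowtie, Partek and the build hg19, with no versions, and the annotation, the counter and the use of strand are not given in the sources used here. The table has 23393 genes, of which 20083 had a count and 15262 passed edgeR's filterByExpr.

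Counts were fitted in R 4.3.3 with edgeR 4.0.16 (TMM, glmQLFit, glmQLFTest, all 8 libraries, 1 mean per group, 4 residual and 3.40 prior degrees of freedom), and p-values were adjusted by Benjamini-Hochberg over all tested genes. The difference between responses was an interaction contrast. The fit was tested on simulated data. Alternatives used limma 3.58.1, DESeq2 1.42.0, other scalings and filters, and each library left out. Transcript lengths and overlaps came from GENCODE 29 and promoters from RefSeq, both on GRCh38, which is not the build of the counts, so no coordinates of counted features are given. Promoter windows were those nearest the principal transcript's start.

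The 10 enzymes, the 11 related lists and the tests were chosen with earlier results of these data known. Named beyond the 10 are 9 direct partners and, per list and contrast, up to 2 rises and 2 falls that passed, did not overlap between groups and averaged 10 CPM or more, and the 3 genes most like CAT and SOD2. WTAP, MMACHC and HOOK2 were named for their overlap with a member. Some genes that meet this rule are not reported here. Depth sets counting error only.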

Additional observations from a re-analysis of the deposited data

Results flagged for a closer look

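For 6 of the 10 enzymes the response to ADI differed between ρ0 and parental cells by the interaction test, while 40.4% of all tested genes passed it. Values are ρ0 minus parental log2 responses with edgeR adjusted p. CAT had 2.61 (adjusted p = 5.3e-04), since it fell 16.2-fold in parental and 2.66-fold in ρ0 cells. SOD2 had 1.83 (adjusted p = 1.2e-04), with a fall in parental cells and a small rise in ρ0 cells. PRDX5 had 0.88 (adjusted p = 0.0078) and GPX4 0.45 (adjusted p = 0.027), both lower after ADI in parental cells. PRDX4 had -0.83 (adjusted p = 0.0024) and PRDX6 -0.63 (adjusted p = 0.018), both higher after ADI in parental cells. All 6 kept their direction with either ρ0 control library left out. Passing the test in those fits is not a check, since the spread then comes from the closer pairs. GPX4 and PRDX6 each lost the call in 8 of 19 alternatives. Groups of 2 are too small for a check of single samples far from the rest.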

How the results depend on the processing

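The calls for CAT and SOD2 in parental cells, in the difference between the responses and between the lines under ADI kept their direction and their side of the threshold under all alternatives run, as did those of CAT and SOD1 in ρ0 cells. Over the 10 enzymes and 5 comparisons, 864 values under alternatives kept direction and call, 67 lost the call, 35 gained one and 24 changed sign. With the DEG thresholds the numbers called were 2 in parental cells, 2 in ρ0 cells, 2 for the difference, 0 between the lines in full medium and 3 between them under ADI, beside 34.9%, 12.4%, 19.9%, 30.9% and 35.5% of all tested genes. Fitting only the groups compared gave 10 in parental cells, 3 in ρ0 cells, 2 between the lines in full medium and 9 under ADI. Of all tested genes 83%, 22.1%, 48.3% and 85.8% were called in these fits. Leaving out each library gave 8 to 10 in parental cells, 3 to 8 in ρ0 cells, 4 to 10 for the difference, 4 to 9 in full medium and 5 to 9 under ADI. Of all tested genes, 51.5% to 80.1% were called in parental cells, 20.2% to 62.8% in ρ0 cells and 22.5% to 65.9% for the difference. Between the lines these shares ran from 47.9% to 77.3% in full medium and from 51.8% to 80.2% under ADI. The shift with the library left out is thus not particular to the enzymes. A group left with 1 library is assumed to vary like the others, and without a ρ0 control the spread comes from closer pairs. Upper quartile and total count scaling moved the median of all tested genes in parental cells by -0.12 and -0.16, and changes there are relative to that shift.

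Samples with the same replicate number did not deviate together (r between groups from -0.05 to 0.04), so the numbers do not pair them. With the number as a block, 4 enzymes were called in ρ0 cells, beside 38.8% of all tested genes, and SOD2 lost its call there (0.23). The other numbers of calls did not move. The shares of all tested genes beside them were 64.8% in parental cells and 37.6% for the difference. Between the lines they were 60.9% in full medium and 65.5% under ADI.

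Adding PRDX5 to the mitochondrial enzymes gave class differences of 0.0268 in parental controls, -0.924 in parental ADI and -0.174 in ρ0 controls. The median transcript length gave mitochondrial shares of 25.4%, 13.2%, 24.0% and 27.4% in parental control, parental ADI, ρ0 control and ρ0 ADI. By the longest transcript the parental libraries were at 18.2% and 17.6% in the controls and 11.4% and 11.5% after ADI. The ρ0 libraries were at 15.8% and 14.0% in the controls and 13.5% and 13.4% after ADI, the opposite direction to the median length.

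The values that changed sign were near 0 in the values reported above, and the cause was not tested. PRDX1 in parental cells was -0.0470 with upper quartile and -0.0891 with total count scaling. In ρ0 cells PRDX4 was 0.0104 with no filter, 0.000588 with only the groups compared and from -0.0801 to 0.0689 with 1 library left out, and PRDX5 was from -0.0693 to 0.317. The difference for PRDX3 was -0.000843 with DESeq2's size factors in edgeR, -0.000847 with DESeq2 and from -0.166 to 0.164 with 1 library left out. Between the lines in full medium, total count scaling gave -0.0626 for SOD2, -0.0571 for PRDX5 and -0.0468 for CAT. With 1 library left out SOD2 was there from -0.0207 to 0.0850, SOD1 from -0.119 to 0.384, PRDX5 from -0.169 to 0.283 and CAT from -0.251 to 0.360. Under ADI PRDX2 was 0.0432 with upper quartile scaling, 0.0105 with no filter, 0.00484 with only the groups compared and from -0.0283 to 0.0101 with 1 library left out.

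Depth limits none of the 10 enzymes, whose lowest count was 123, whereas 2 libraries per group limit every test.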
